A study of Homo sapiens with 4 samples.

Results

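The genes described here encode the proteins of the cytoplasmic ribosome. They are the protein-coding genes whose symbol is RPL or RPS followed by digits, with an optional ending such as A, X or L, together with RPSA, RPLP0, RPLP1 and RPLP2, and without the RPS6K kinases. This rule gave 87 genes of the 19383 protein-coding genes that were compared, 53 of the large subunit and 34 of the small subunit. The measurements came from miCLIP2, in which RNA fragments are crosslinked to an antibody against N6-methyladenosine (m6A) and the sequenced cDNA ends beside the modified base. Polyadenylated RNA was taken from C643 cells, a line derived from an anaplastic thyroid carcinoma. All samples are labelled wild type (WT), and the cells were grown untreated in DMEM with fetal bovine serum, so all samples formed 1 group. The 3 biological replicates gave 4 libraries, since replicate 1 has a pair of technical ones, and the deposited file is a single list of 18789 sites that pools them. Each listed site has a prediction score between 0 and 1 from m6Aboost, the classifier that called it modified, and no listed score was below 0.5. RNA levels, read depths and rejected peaks were not part of the list, so a gene without a site cannot be told apart from a gene with too few reads, and the thyroid origin of the cells could not be checked against marker genes.

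Ribosomal protein genes are transcribed at high levels in dividing cells. Their short mRNAs begin with an oligopyrimidine tract (5′ TOP) through which mTOR signalling controls their translation, and their coding sequence is divided over many short exons. The m6A writer, a complex around METTL3 and METTL14, methylates adenosines within the DRACH consensus, where D is A, G or T, R is A or G, H is A, C or T, and the central A carries the methyl group. In most mRNAs m6A is abundant in long internal exons and around the stop codon and sparse close to exon junctions. The large processed pseudogene families of ribosomal protein genes also make short reads from their mRNAs hard to place uniquely.

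The strongest sites of these genes fell into 2 settings, and their sequences are given first. The first setting was the 3′ untranslated region (UTR). In the order shown, the sites lay 3, 14, 302, 16 and 94 nt behind the first base of the stop codon. Each sequence is the spliced transcript in GRCh38 from 10 bases before to 10 bases after the modified adenosine, 5′ to 3′, with the pentamer around that adenosine in capitals.
RPL36AL, chr14:49618783: ccagttctAAACTttgggata
RPL13A, chr19:49491827: cccaataaAGACTgttaattc
RPL13A, chr19:49492115: catctgttGGACTttccacct
RPL13, chr16:89563056: cctcctggGGACTtggaatca
RPL39L, chr3:187121053: cactacctGGACAgttgcaca

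The second setting was the coding sequence (CDS) near exon junctions. The 5 CDS sites below had the highest scores of all CDS sites in these genes, between 0.785 and 0.882, and each lay at most 77 nt from an exon junction.
RPSA, chr3:39411962: gggtgaatGGACTgctcccgc
RPL3, chr22:39313695: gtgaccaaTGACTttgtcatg
RPS24, chr10:78035711: ccaaacatAGACTtgcaagac
RPS4X, chrX:72272698: gagacaaaAGACTggcggcca
RPL4, chr15:66501025: ctgcatttGGACTgaaagtgc

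At least 1 listed site lay in the exons of 33 of the 87 ribosomal protein genes (37.9%, 95% Wilson interval 28.5 to 48.4%), against 19.6% of all protein-coding genes compared. The members held 59 sites together, while 54 members had none. With only sites scored at 0.7 or above, 12 members remained, with 16 sites, against 17% of all protein-coding genes. In this stricter list the share of members with a site was therefore close to the background. Among genes with a spliced transcript of at most 1000 nt, 19 of 49 members (38.8%, 26.4 to 52.8%) and 264 of 1842 other genes (14.3%, 12.8 to 16.0%) had a site. Of the mitochondrial ribosomal protein genes, which encode the ribosome inside mitochondria, 44 of 78 had a site (56.4%, 45.4 to 66.9%). Of the nuclear genes for respiratory chain subunits, 23 of 84 had a site (27.4%, 19.0 to 37.7%). All these intervals cover counting error only, and the genes of a list are not replicates.

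Members with a site mostly had a single one. Exactly 1 site was listed for 19 of the 33 members (57.6%, 40.8 to 72.8%), against 19.95% (18.7 to 21.3%) of the 3759 other genes with a site. The median was 1 site per member with a site, with a maximum of 8, whereas other genes with a site had a median of 4 and a maximum of 48. Scores were lower as well. The median score of the 59 sites was 0.622, with quartiles of 0.538 and 0.729, against 0.755 with quartiles of 0.642 and 0.848 for 18367 sites in other protein-coding genes. A score of 0.7 or more was given to 27.1% of the member sites and to 63.2% of the sites in other genes. The difference was smaller within a class of motif. Among listed DRACH motifs in the CDS at most 100 nt from an exon junction, the median score was 0.650 in the members, 0.669 in other genes, 0.617 in mitochondrial ribosomal protein genes and 0.546 in respiratory chain genes. Among listed DRACH motifs in the 3′ UTR it was 0.757 in the members and 0.817 in other genes. There it was 0.829 in mitochondrial ribosomal protein genes and 0.827 in respiratory chain genes, so the members had the lowest median. The transcript region and the signal strength relative to the rest of the gene were inputs of the classifier, and the part of signal strength was not tested.

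**Figure D1:**
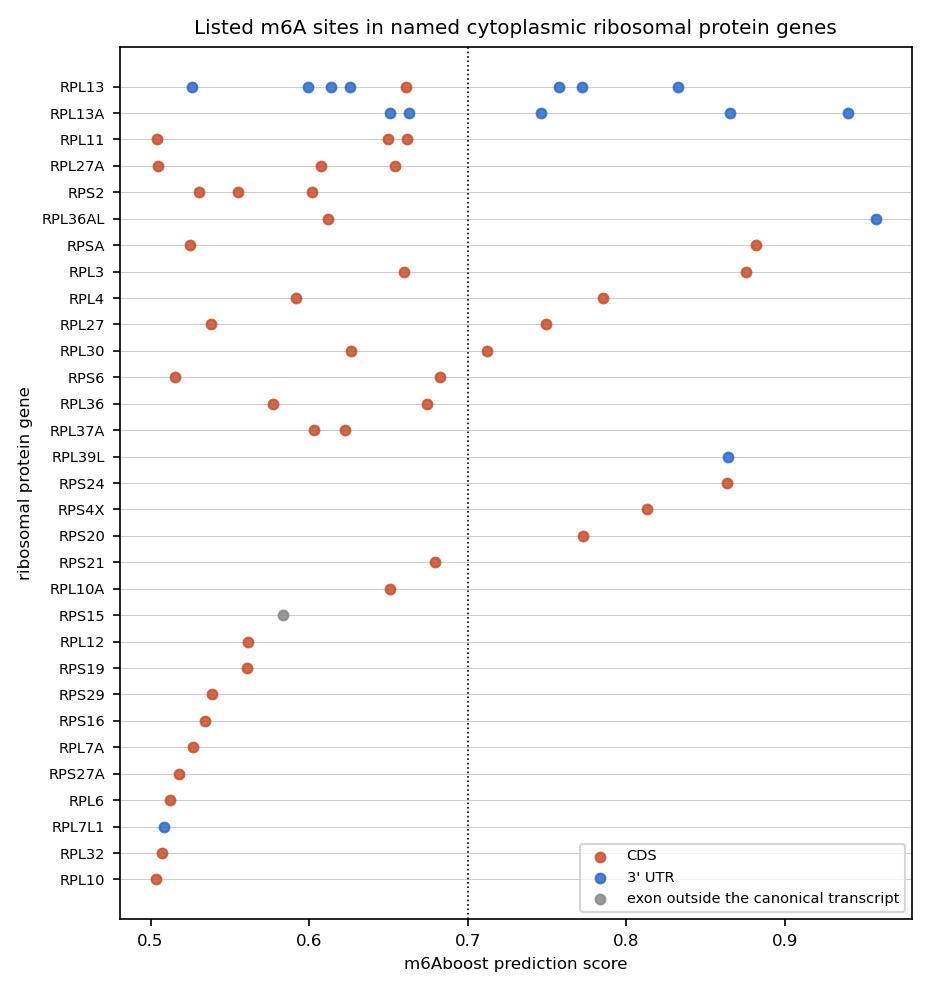
Prediction score (x axis) of the listed sites in the ribosomal protein genes named in the text (y axis), each point 1 site, coloured by transcript region, with a dotted line at 0.7. RPL13 and RPL13A carry most of the 3′ UTR sites, and most CDS sites lie left of the line.

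The share of genes with a site was 19 of 53 for the large subunit (35.8%, 24.3 to 49.3%) and 14 of 34 for the small subunit (41.2%, 26.4 to 57.8%), with overlapping intervals. Of the DRACH motifs in the canonical transcripts, the reference isoform that the annotation gives each gene, 35 of 1481 were listed in large subunit genes (2.36%, 1.70 to 3.27%) and 12 of 691 in small subunit genes (1.74%, 0.996 to 3.01%).

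Among large subunit genes, RPL13 had the most sites, 8, of which 7 belonged to the 3′ UTR and 1 to the CDS. The 3′ UTR sites lay in exon 6 of 6, between 16 and 262 nt behind the first base of the stop codon, at chr16:89563056 to chr16:89563302. Their scores were, in transcript order, 0.832, 0.626, 0.526, 0.772, 0.599, 0.614 and 0.757, so 3 of the 7 reached 0.7. RPL13A, whose protein also takes part in interferon-dependent silencing of translation, had 5 sites, all in the 3′ UTR in exon 8 of 8. They lay 14, 73, 260, 302 and 406 nt behind the first base of the stop codon, with scores of 0.939, 0.651, 0.663, 0.865 and 0.746. RPL13 and RPL13A are unrelated in sequence despite their names, and together they held 13 of the 59 member sites and 12 of the 15 that lay in a 3′ UTR.

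The other 3 sites in a 3′ UTR belonged to genes named as paralogs of a ribosomal protein gene. RPL36AL had the highest score of all member sites, 0.957, at the first adenosine behind its stop codon, 3 nt after the stop codon's first base. RPL39L, a paralog of RPL39 known for its expression in testis, had a site scored 0.864 in exon 3 of 3, 94 nt behind the first base of the stop codon. RPL7L1, which is known for a part in ribosomal RNA processing, had a site scored 0.509 at an AGATT that is no DRACH, and the 30 nt that followed it occurred at 47 other places of the genome.

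RPL11, which binds and inhibits MDM2 when ribosome assembly is disturbed, had 3 CDS sites, with scores of 0.662, 0.650 and 0.504. The first pair lay 4 nt apart in exon 2 of 6, at an AGACA and an AGACT that overlap by 1 base. RPL27A also had 3 CDS sites, all in exon 4 of 5, scored 0.654, 0.607 and 0.505. RPL3, which reaches towards the peptidyl transferase centre, had CDS sites scored 0.875 in exon 8 of 10 and 0.660 in exon 3. RPL4, whose protein lines the exit tunnel, had sites scored 0.785 in exon 7 of 10 and 0.592 in exon 3. RPL27 had sites scored 0.749 and 0.538, RPL30 of 0.712 and 0.627, RPL36 of 0.674 and 0.577, and RPL37A of 0.622 and 0.603, all in the CDS. RPL10A (0.651), RPL12 (0.562), RPL7A (0.527), RPL6 (0.512), RPL32 (0.507) and RPL10 (0.503) had 1 CDS site each, all below a score of 0.7.

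Among small subunit genes, the highest score was that of RPSA, which was first known as a laminin receptor, at 0.882 in exon 6 of 7. A second RPSA site, 16 nt upstream at a GAATT that is no DRACH, had a score of 0.525. RPS24, a gene mutated in Diamond-Blackfan anaemia, had a site scored 0.863, 10 nt from an exon junction. RPS4X, on the X chromosome, had a site scored 0.813 in its last exon, 25 nt before the stop codon. RPS20 followed with 0.772, and these 4 genes held all the small subunit sites with a score of 0.7 or more. RPS2 had 3 CDS sites, scored 0.602, 0.555 and 0.530. RPS6, the substrate of the S6 kinases, had a pair of sites 4 nt apart in exon 4 of 6, scored 0.683 and 0.516. RPS21 (0.679), RPS19 (0.561), RPS29 (0.539), RPS16 (0.535) and RPS27A (0.518), whose product is a fusion with ubiquitin, had 1 CDS site each. The RPS15 site, scored 0.583 at chr19:1438394, lay in an exon of another coding transcript but not in the canonical one, so the positions below refer to 58 sites.

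Several of these sites lay so close together that their 21-nt windows overlap. Of the 26 pairs of neighbouring sites in the 14 members with more than 1 site, 3 pairs were at most 10 nt apart and 12 pairs were at most 50 nt apart. Pairs in other genes were not counted, and member transcripts are short, so no closer spacing is read from these values. The 3 closest pairs, in RPL11, RPS6 and RPL13, were as follows.
RPL11, chr1:23692694: gagagtggAGACAgactgacg
RPL11, chr1:23692698: gtggagacAGACTgacgcgag
RPS6, chr9:19378495: atattcctGGACTgactgata
RPS6, chr9:19378491: tcctggacTGACTgatactac
RPL13, chr16:89563110: tttcgtggGAACAactgggcc
RPL13, chr16:89563113: cgtgggaaCAACTgggcctgg

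The RPL13 partner at chr16:89563113 had the lower score of its pair, 0.526 against 0.626, and its pentamer is no DRACH. Of the 58 sites, 47 lay at a DRACH (81.0%, 69.1 to 89.1%), against 88.7% of the sites in other genes. GGACT was the commonest pentamer with 10 sites, followed by AGACT with 9 and AAACT with 5, while GAACA had 4 sites, as had TGACT and likewise GGACA. The 11 sites outside DRACH had a median score of 0.527 and a maximum of 0.612, and the 47 at DRACH a median of 0.654.

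Of the 58 sites, 42 lay in the CDS (72.4%, 59.8 to 82.2%), 15 in the 3′ UTR (25.9%, 16.3 to 38.4%) and 1 in the 5′ UTR. Sites in other protein-coding genes were divided differently, since 42.9% were coding and 54.9% belonged to a 3′ UTR. All sites were in the CDS in 26 of the 32 members with a site in the canonical transcript. The last exon held 22 of the 58 sites (37.9%, 26.6 to 50.8%), against 76.3% in other genes. Within 200 nt of the stop codon lay 27 member sites (46.6%, 34.3 to 59.2%) and 34.5% of the sites in other genes. That window covers more of a short transcript, and the member transcripts were shorter (median 848 nt against 2935 nt). The share of motifs in the window was not counted, so no enrichment is read from these values.

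Individual members had a site at the stop codon itself. In RPS29 the adenosine lay 2 nt before the first base of the stop codon, so that the last T of its GGACT was that base. In RPS21 it lay 5 nt before the stop codon, and in RPL36AL it was the base just behind the stop codon, as printed above. The RPS29 site is shown with that of RPS21, which also lay next to an exon junction, 3 nt away.
RPS29, chr14:49583671: attaagttGGACTaaatgctc
RPS21, chr20:62388459: gtctcaaaGAACTtttgactg

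**Figure D2:**
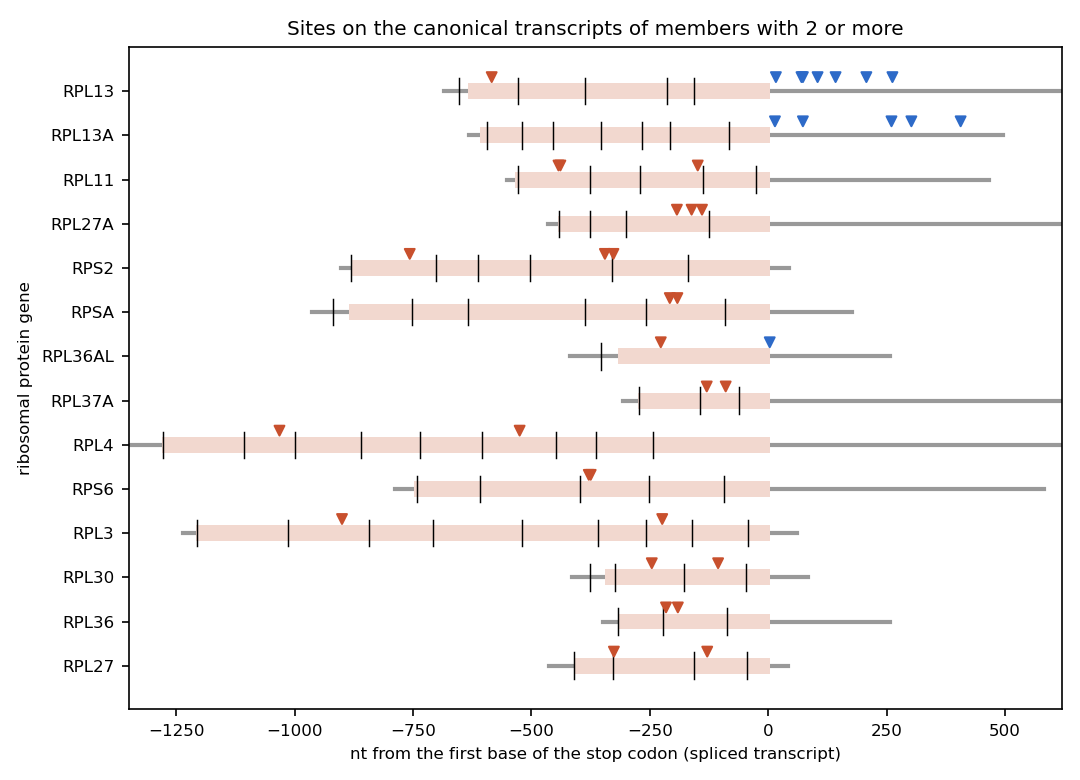
Canonical transcripts of the 14 members with 2 or more sites, aligned at the first base of the stop codon (x axis, nt in the spliced transcript; lines that reach the frame go on beyond it). Thick bars are CDS, grey lines UTRs, black ticks exon junctions and triangles listed sites, red in the CDS and blue in the 3′ UTR. RPL13 and RPL13A carry blue triangles along the 3′ UTR, and most others carry only red ones among closely spaced junctions.

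The transcripts of ribosomal protein genes differed from those of other genes in nearly every measure of length. The median spliced length was 848 nt for the members and 2935 nt for other genes. The median CDS was 459 nt against 1296 nt, and the median 3′ UTR 174 nt against 1042 nt. The longest exon had a median of 344 nt against 1515.5 nt. The members held a median of 17 DRACH motifs, of which 4 lay more than 100 nt from every exon junction, against 55 and 31 in other genes. Respiratory chain genes were built much like the members, with medians of 750 nt for spliced length, 412.5 nt for the CDS, 190.5 nt for the 3′ UTR and 293 nt for the longest exon, and with 16 DRACH motifs, 4 of them that far from a junction. No DRACH that far from a junction existed in 20 of the 87 members (22.99%, 15.4 to 32.9%), against 5 of 84 respiratory chain genes (5.95%, 2.57 to 13.2%) and 0.886% of other genes. These numbers describe the annotated isoforms, and which isoforms the cells used was not measured.

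CDS sites of the members lay close to exon junctions. At most 100 nt from a junction were 41 of the 42 (97.6%, 87.7 to 99.6%), against 2203 of 7719 CDS sites in other genes (28.5%, 27.5 to 29.6%). At most 25 nt away were 17 of 42 (40.5%, 27.04 to 55.5%), against 8.91% in other genes, and at most 10 nt away were 7 of 42 (16.7%, 8.32 to 30.6%), against 3.58%. The nearest were those of RPL27, RPS21, RPS2 and RPS29, which lay 2, 3, 4 and 5 nt from a junction. The RPL27 sequence reads across that junction.
RPL27, chr17:42999934: atcgtgaaGAACAttgatgat

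The motifs themselves are placed this way in short exons. Of the DRACH motifs in the CDS, 794 of 841 in the members lay at most 100 nt from a junction (94.4%, 92.6 to 95.8%), against 93.1% (91.2 to 94.7%) in respiratory chain genes and 69.5% in other genes. The distances of the listed CDS sites followed those of the motifs in the members, but not in other genes, as the cumulative plot shows. The only CDS site farther away was that of RPL36AL, at 128 nt, in a gene whose CDS lies in a single exon of 611 nt.

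**Figure D3:**
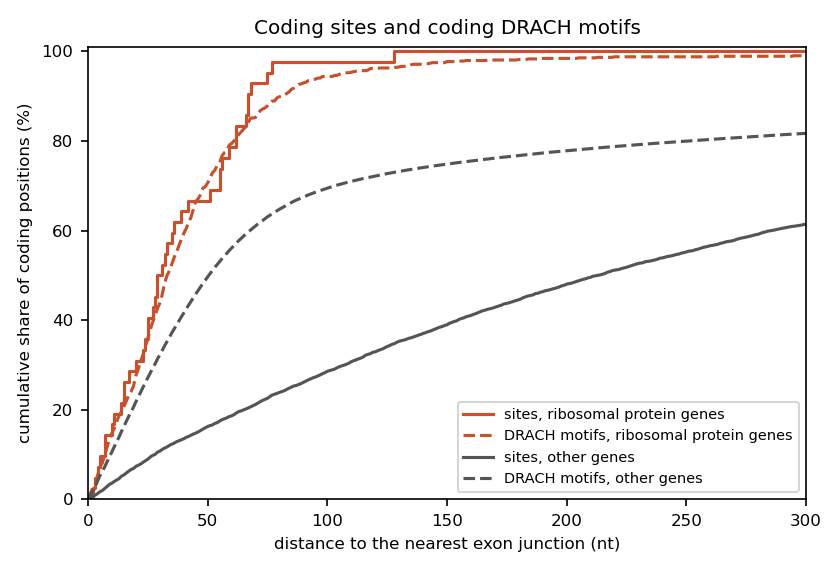
Cumulative share (y axis, %) of CDS sites (solid) and CDS DRACH motifs (dashed) by distance to the nearest exon junction (x axis, nt), for the 87 ribosomal protein genes (red) and all other protein-coding genes (grey). At 100 nt the red lines stand at 97.6% and 94.4%, the grey lines at 28.5% and 69.5%.

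At any score and over whole annotated transcripts, the share of motifs that were listed differed between the 2 settings. Within 100 nt of a junction in the CDS, 33 of 794 DRACH motifs of the members were listed (4.16%, 2.97 to 5.78%), against 1978 of 469120 in other genes (0.422%, 0.404 to 0.441%). Mitochondrial ribosomal protein genes had 25 of 815 listed there (3.07%, 2.09 to 4.49%), whose interval overlaps that of the members, and respiratory chain genes 9 of 787 (1.14%, 0.603 to 2.16%), whose interval does not. Farther than 100 nt from a junction in the CDS, 0 of 47 member motifs were listed, which allows a share of up to 6.38%. The share there was 2.40% in other genes, within that limit, 22 of 191 (11.5%, 7.73 to 16.8%) in mitochondrial ribosomal protein genes and 5 of 58 (8.62%, 3.74 to 18.6%) in respiratory chain genes. In the 3′ UTR more than 100 nt from a junction, 12 of 1222 member motifs were listed (0.982%, 0.563 to 1.71%), against 1.37% in other genes, 4.15% (3.26 to 5.26%) in mitochondrial ribosomal protein genes and 6 of 1328 (0.452%, 0.207 to 0.982%) in respiratory chain genes.

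Most of the listed member motifs near junctions had scores below 0.7. At a score of 0.7 or more, 8 of the 794 member motifs were listed (1.01%, 0.511 to 1.98%), against 0.177% in other genes. Mitochondrial ribosomal protein genes had 8 of 815 listed at that score (0.982%, 0.498 to 1.92%). Respiratory chain genes had 1 of 787 (0.127%, 0.0224 to 0.716%). Both intervals overlap that of the members. In the 3′ UTR more than 100 nt from a junction, 7 of 1222 member motifs reached that score (0.573%, 0.278 to 1.18%). This interval overlaps that of the members near junctions, so the 2 settings were not separated at 0.7 or more. Among genes with a site, the 33 members had shares of 9.35% (6.73 to 12.8%) at any score and 2.27% (1.15 to 4.41%) at 0.7 or more, and the 3759 other genes had 2.37% and 0.997%. Both sets of genes were chosen by having a site, which raises the share more where a gene has few motifs, so nothing is read from this pair of values.

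**Figure D4:**
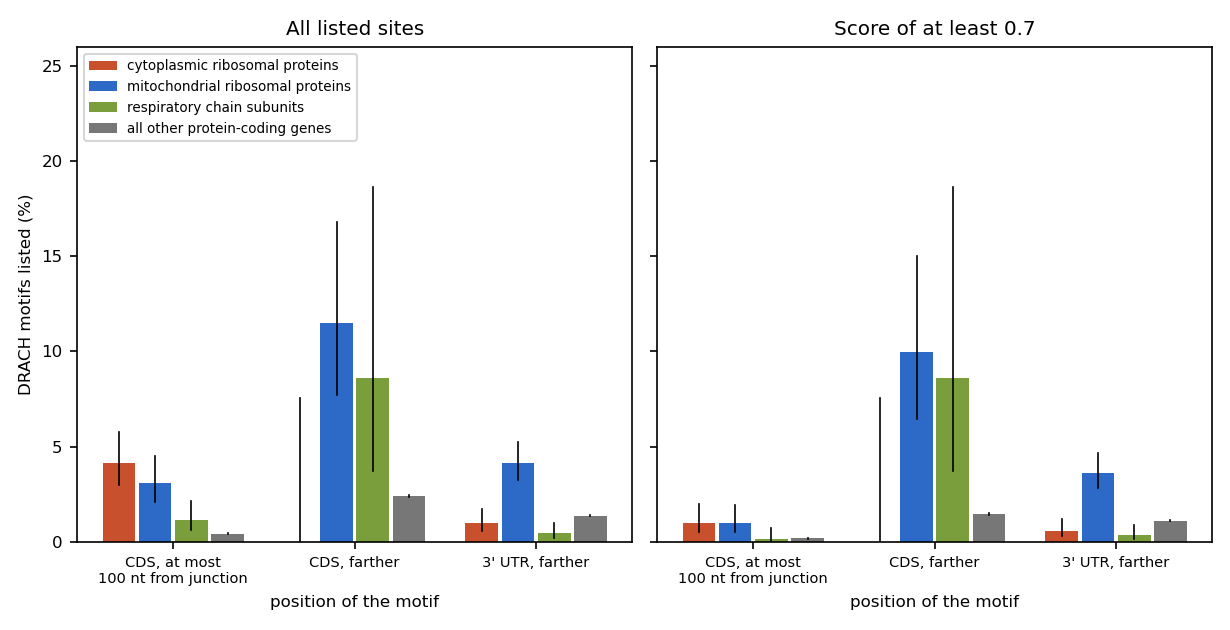
Share of DRACH motifs that were listed (y axis, %) by position of the motif (x axis), at any score (left) and at a score of 0.7 or more (right), for 4 sets of genes. Lines are 95% Wilson intervals over motifs; ribosomal protein genes have no listed motif in the CDS farther than 100 nt from a junction, and within 100 nt their share is 4.16% on the left and 1.01% on the right.

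Over all regions, 47 of 2172 member motifs were listed (2.16%, 1.63 to 2.87%), against 1.18% in other genes, 4.32% in mitochondrial ribosomal protein genes and 1.21% in respiratory chain genes. The listing rates of all other genes, applied to the members' motifs by region and by distance to a junction, gave 22.8 motifs. The observed number was thus 2.06 times that (1.55 to 2.73). The ratio was 3.81 (3.18 to 4.55) for mitochondrial ribosomal protein genes, 1.14 (0.790 to 1.64) for respiratory chain genes and 1.48 (0.937 to 2.32) for a list of 15 translation factors and other 5′ TOP genes. The ratio of the ribosomal protein genes was 0.972 (0.599 to 1.57) at a score of 0.7 or more. It was 0.313 (0.236 to 0.414) when the rates came only from other genes with a site, but these genes were chosen by the outcome, and all other genes gave 0.147 on that scale. The ratio therefore depends on the score, and the part of RNA level, which was not measured, was not tested.

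The number of sites in a member did not follow its number of motifs. Over the 87 members, which share all their libraries, Pearson's r between sites and DRACH motifs was 0.065 and Spearman's rho 0.123. For motifs more than 100 nt from a junction r was 0.031, for spliced length 0.041 and for 3′ UTR length 0.013. Members with a 3′ UTR of at most 100 nt had a site in 14 of 39 cases (35.9%, 22.7 to 51.6%), and those with a longer one in 19 of 48 (39.6%, 27.02 to 53.7%). By motif number, 7 of 22 members with up to 10 DRACH motifs had a site (31.8%), as did 7 of 15 with more than 40 (46.7%), with intervals of 16.4 to 52.7% and 24.8 to 69.9%.

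Several members with long annotated transcripts had no site. RPL37 had the longest transcript, 7573 nt with 152 DRACH motifs more than 100 nt from a junction, followed by RPL14 with 7136 nt and 104 such motifs and RPS27L with 6110 nt and 93. Next by the number of such motifs came RPL7L1, with 76 and 1 site, and then RPL27A, with 67 and 3 sites. By length RPL27A (4535 nt) came before RPL7L1 (4499 nt). Among members without a site, RPL28 and RPS23 had the next most such motifs, 58 and 53. The 21 members with a 3′ UTR of more than 1000 nt held 1036 of the 1276 3′ UTR DRACH motifs of all members. They held only 6 of the 13 that were listed, and all 6 belonged to RPL13. Whether C643 cells use these long 3′ UTRs cannot be read from the list. With motifs counted only up to 500 nt behind the stop codon, 3.69% (2.78 to 4.87%) of the member motifs were listed, and the ratio to the standardised number was 2.46. Under that limit, 3.10% (1.78 to 5.34%) of the member motifs more than 100 nt from a junction were listed.

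**Figure D5:**
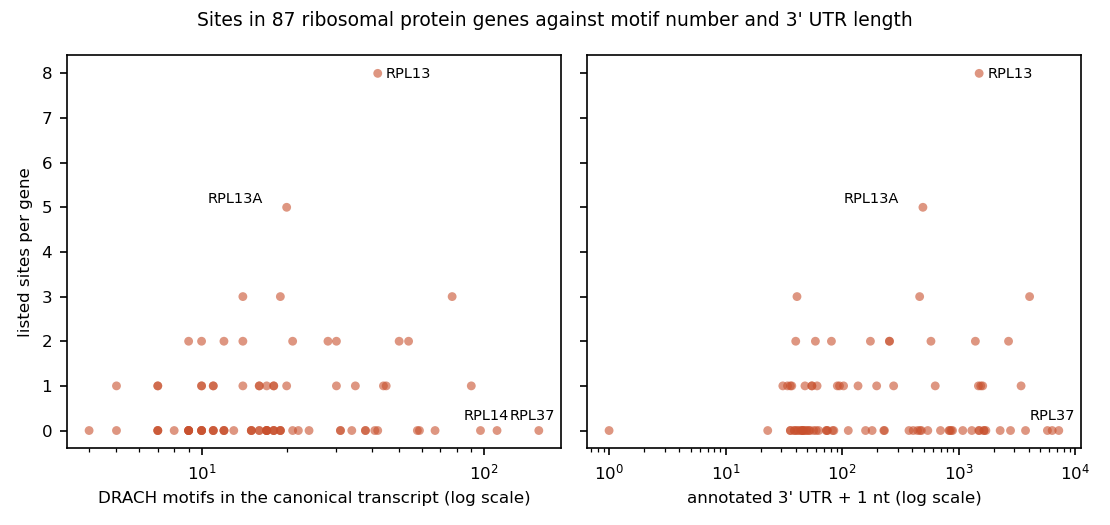
Listed sites per gene (y axis) against the number of DRACH motifs in the canonical transcript (left, log scale) and the length of the annotated 3′ UTR (right, nt plus 1, log scale) for the 87 ribosomal protein genes, with darker points where genes overlap. RPL13 and RPL13A have the most sites, 8 and 5, at 42 and 20 motifs, and RPL37, far to the right in both panels, has 0.

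RPL13 and RPL13A decided the values for the 3′ UTR. More than 100 nt from a junction in any region, 0.935% (0.535 to 1.63%) of the member motifs were listed, against 1.60% in other genes. Without RPL13 the member share fell to 0.480%, and without both genes to 0.161% (0.0441 to 0.584%), with 1244 motifs left. Both genes were left out because of their many sites, so the share had to fall. Other genes were not trimmed in this way, so no depletion is read from the lower values. The ratio of observed to standardised motifs without both genes was 1.58 (1.14 to 2.19).

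The stalk of the large subunit, which recruits the GTPase translation factors, is formed by RPLP0, RPLP1 and RPLP2, and none of these genes had a listed site. Their canonical transcripts held 17, 21 and 5 DRACH motifs. RPL5, which binds MDM2 together with RPL11, also had none, with 16 motifs. Ribosomal proteins that carry other symbols were counted apart. RACK1, a scaffold protein on the small subunit, had 3 CDS sites, scored 0.784, 0.745 and 0.564, the second of them 1 nt from a junction. FAU, which encodes a fusion of a ubiquitin-like protein with a ribosomal protein, had none. Of the 15 translation factors and other 5′ TOP genes, 7 had a site, with EEF2, the elongation factor for translocation, at the top with 9. The most sites in the other lists were 8 in MRPS34 and 3 in NDUFV3.

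Of the 11 members whose symbols mark them as paralogs of another member (endings L, L1, X, Y1 and Y2), 4 had a site (36.4%, 15.2 to 64.6%). Counterparts of 4 listed sites could be aligned in RPL36A, RPL3L and RPL10L, and none of them was listed. Only 2.16% of all member DRACH motifs were listed, so no difference between paralogs is read from this. The RPS4X site was not aligned to a partner. The RPL36AL site in the CDS and its counterpart in RPL36A share the pentamer GGATT and differ at 2 of 21 bases, but the counterpart lay 18 nt from a junction and the listed site 128 nt. The 2 RPL3 sites matched RPL3L at all but 3 of 21 bases each, which changed TGACT to CGACT and AGACT to AGACC. The RPL10 site and RPL10L differed at 2 of 21 bases, GAACA in the first and GAACG in the second. The listed sequence stands before its partner in each pair below.
RPL36AL, chr14:49619013: aagggcaaGGATTctttgtat
RPL36A, chrX:101391547: aagggcaaGGATTctctgtac
RPL3, chr22:39313695: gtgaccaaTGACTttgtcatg
RPL3L, chr16:1945896: gtgaacaaCGACTtcgtcatg
RPL10, chrX:154400565: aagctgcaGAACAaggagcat
RPL10L, chr14:46651306: aagcttcaGAACGaggagcat

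Neither RPL36A, RPL3L nor RPL10L had a site anywhere, and their RNA levels were not measured. The 3′ UTR sites of RPL36AL, RPL39L and RPL7L1 had no aligned counterpart in RPL36A, RPL39 and RPL7.

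Only uniquely mapping reads had been kept, so the 30 nt that follow each motif, where such reads begin, were searched in the genome. They occurred elsewhere for 796 of 2117 member motifs (37.6%, 35.6 to 39.7%), against 7.29% of the motifs in other genes, 8.32% in mitochondrial ribosomal protein genes and 15.0% in respiratory chain genes. In the members, pooled over all positions, 20 of 796 repeated motifs were listed (2.51%, 1.63 to 3.85%) and 27 of the 1321 others (2.04%, 1.41 to 2.96%). Of these 1321, 1016 lay more than 100 nt from a junction, against 1284 of all 2172 member motifs. Motifs that far away were listed less often, 0.935% against 3.94% of those nearer. The pooled pair therefore does not compare motifs at like positions, and repeats within a position class were not compared. In other genes the shares were 0.355% and 1.25%. Of the 58 member sites, 25 were followed by 30 nt found elsewhere and 11 by 50 nt found elsewhere, among them RPS24 and RPL3 with 1 other place each at 50 nt. With only the unique motifs the ratio of observed to standardised motifs was 1.59 (1.09 to 2.30). How long the reads were at each site is not recorded in the list, so the share of reads lost to repeats was not tested.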

How the data were processed

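The authors aligned the miCLIP2 reads to GRCh38 (GENCODE release 31) with STAR 2.7.3a, discarded multimapping reads, removed duplicates with UMI-tools 1.0.0 and handled reads bearing a C-to-T transition separately. PureCLIP peaks were called per replicate, those in at least 2 replicates were retained, and m6Aboost classified the peaks that lay on an A. SAMtools 1.9 and bedtools 2.27.1 appear in the submitters' processing notes. The deposited prediction score is a fraction between 0 and 1. No counts accompany it, so depth and replicate spread are unknown and no test between samples was made.

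All 18789 sites lay on an A of GRCh38 after conversion to 1-based positions. Sites were assigned by strand to exons of GENCODE release 44 genes. Readthrough genes were left out, and region, junction distance (adjacent base 1 nt) and motifs refer to the canonical transcript. Standardised numbers apply the listing rates of all other protein-coding genes within region and junction class (at most 100 nt, farther, no junction). Intervals are 95% Wilson intervals over genes, sites or motifs, scaled for ratios. The floor for a count of 0 is 3 counts. The calculation was tested on simulated lists. These drew each motif on its own at its class rate, which checks the arithmetic only. Sites that group within a gene and differences in RNA level were not simulated. Python 3.11.15, numpy 2.4.6, pandas 2.3.3 and numba 0.67.0 were used.

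The members and lists were chosen with earlier results of these data known. Named genes were every member with a site, the 5 members without a site with the most motifs more than 100 nt from a junction, the 3 longest, the paralog pairs, RACK1 and FAU, and the top gene of each other list. Some genes that this rule covers are counted in the totals but not reported here by name. RPLP0, RPLP1, RPLP2 and RPL5 were added for their known roles. Alternatives changed the score minimum, transcript choice, motif, distance, reference genes, uniqueness and members. Those limited to 500 nt behind the stop codon, without RPL13 and RPL13A together, or combining score and reference genes were chosen after seeing the data.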

Additional observations from a re-analysis of the deposited data

How the results depend on the processing

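Of 44 alternative values, 31 stayed within the limits set for a change, 10 moved and 3 fell from above 1 to below it. At a score of 0.7 or more, members with a site fell from 33 to 12, their sites from 59 to 16 and the listed share of DRACH motifs from 2.16% to 0.737%. The ratio of observed to standardised motifs fell from 2.06 to 0.972 at that score. With reference genes that have a site, it was 0.313, and 0.146 at the stricter score. Such a reference lowers any ratio by construction, since all other genes gave 0.147 and 0.146 on it, so these values show no reversal by themselves. Under the other alternatives the ratio lay between 1.58 and 2.46. With GGACT in place of DRACH, 9.80% of the member motifs were listed, and 4.48% of those more than 100 nt from a junction. The interval of the 9.80% contained the GGACT share of all other protein-coding genes. It also contained those of mitochondrial ribosomal protein genes, respiratory chain genes and the 5′ TOP list, so no difference is read from it. With DRACH motifs limited to 500 nt behind the stop codon, the listed shares were 3.69% of all member motifs and 3.10% of those more than 100 nt from a junction. The share more than 100 nt from a junction, 0.935%, was 0.480% without RPL13 and 0.161% without RPL13 and RPL13A. With 50 in place of 30 following nt, 23.98% of the member motifs were repeated elsewhere. The causes of the other changes were not tested. No replicate could be left out and no pairing could be tried, since the list merges the replicates of a single group. Depth is unknown, so absent sites cannot be told apart from too few reads, and the annotation release differs from that of the authors.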
